A study of Dascyllus aruanus with 17 samples.

Results

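Period genes are core parts of the circadian clock, and 4 features with Period names were measured here in the whole brain of *Dascyllus aruanus*, a damselfish of coral reefs. They were chosen by name: a feature was kept when the deposited annotation gave it the name *PER1*, *PER2* or *PER3*, in any case, with or without an A or B at the end. The annotation held 22 such genes of the assembled transcriptome (9 *PER1*, 8 *PER2* and 5 *PER3*). Of these, 4 were among the 21805 features of the count table, namely 1 *PER1*, 2 *PER2* and 1 *PER3*, and all 4 passed the filter on low counts.

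Messenger RNA was sequenced from 14 brains, a single brain per library, with reads of 150 bases. Wild fish of 6 colonies, with no age stated, had been caught along with their host corals and given 96 h of habituation. For the following 72 h colonies had either natural days and nights (controls) or nights lit by dim white lamps (artificial light at night, ALAN). After 3 nights brains were taken at ZT11 (zeitgeber time, in hours), 1 h before sunset, or at ZT23, 1 h before sunrise, which are called day and night here. Each day group, control and ALAN, had 3 brains and each night group had 4. The lamps lit whole colonies and no source used here says which fish came from which, so brains of the same group could come from a shared colony, while p-values take every fish as independent. At ZT23 the ALAN fish were sampled within the lit hours and the controls in the dark, so the light at sampling and the 3 treated nights cannot be told apart.

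In vertebrates, Period proteins accumulate over hours, pair with cryptochromes and hold back the activator formed by CLOCK and BMAL1 (the product of *ARNTL*), which drives the Period genes themselves. Their PAS domains join Period proteins to each other, and casein kinases 1 delta and epsilon phosphorylate Period proteins and set how long they last. In zebrafish, *per1b* and *per3* are known for a rhythm that is high around dawn, whereas *per2* is known as a gene switched on by light. Teleosts can carry extra copies of clock genes from the genome duplication of their ancestors, so features with the same name can be separate genes.

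The 4 measured features were matched to 4 different proteins of a single species. The deposited bit scores, which measure how well a sequence matches a known protein, were 1548 for *PER1* (DN4896_c1_g2), described as Period homolog 1b, 1910 for *PER3* (DN3281), 1721 for the *PER2* feature DN4896_c1_g1, described as Period homolog 2, and 1670 for the *PER2* feature DN2810, described only as Period circadian. The median of the count table was 536, and the other 18 Period-named genes, not analysed here, scored between 48.5 and 192. All 4 features were annotated with PAS domains and the Period C-terminal domain, and they shared 57 Gene Ontology terms. The *PER2* features fell in different orthologous groups of fishes, so they are treated apart and written PER2 DN2810 and PER2 DN4896. *PER1* and PER2 DN4896 were the 2 features of a single assembly component, so reads of similar stretches may have been divided between them. Feature lengths were not used here, so levels are compared between samples and not between features.

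Libraries held between 14942952 and 23051193 expected counts. Levels are given as CPM, counts scaled to a common library size with TMM factors. Neuronal markers summed to between 2107 and 2782 CPM in every library, oligodendrocyte markers to between 1554 and 2402 CPM, and no feature carried the names *SNAP25*, *GFAP* or *MBP*. Pituitary markers ranged from 2.87 to 1295 CPM. Blood markers ranged from 10.7 to 42.8 CPM, but these were 2 features and none was named *HBA* or *HBB*, so they say little about blood. No feature was named *ACTA1*, a defining gene of muscle, either. Photoreceptor markers of eye or pineal (25 of 28 features tested) stood apart in 3 control brains, with summed levels of 391 CPM in control day replicate 1, 454 CPM in control night replicate 2 and 2082 CPM in control night replicate 4, against 64.7 to 161 CPM in the other 11. The edgeR comparisons were therefore also run without these 3 libraries, a choice made after the marker sums were seen. Comparisons of Period features with each other, their spread and their likeness to other features were not.

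*PER1* and *PER3* were at a low level late in the day and at a high level late in the night, in controls and under ALAN alike. *PER3* measured 7.82, 8.80 and 8.54 CPM in the control day brains and 87.8, 103.5, 90.8 and 111.7 CPM in the control night brains. Under ALAN it measured 8.73, 8.67 and 7.22 CPM by day and 111.7, 105.3, 107.2 and 112.0 CPM at night. Day and night brains did not overlap within either treatment. Such a gap of any width, with night higher, was seen in 6.59% of all features in controls and 5.72% under ALAN. Over the 6 day and 8 night brains together the lowest night value was 9.97 times the highest day value. The share of all features without overlap over these brains together was not computed. *PER3* rose at night by a log2 fold change of 3.55 in controls (SE 0.126, 95% confidence interval 3.28 to 3.82, edgeR adjusted p 2.58e-09) and of 3.73 under ALAN (SE 0.127, interval 3.46 to 4.00, edgeR adjusted p 2.38e-09). It had the smallest p of all 20782 tested features in both comparisons.

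*PER1* had the larger fold change and the larger spread. It measured 2.94, 3.42 and 3.33 CPM in the control day brains and 73.3, 100.2, 116.5 and 89.8 CPM in the control night brains. Under ALAN it measured 7.10, 3.88 and 3.79 CPM by day and 69.8, 97.0, 88.2 and 86.4 CPM at night. The day and night brains again did not overlap within either treatment, as in 6.59% of all features in controls and 5.72% under ALAN. Over both treatments the lowest night value was 9.82 times the highest day value. The night minus day log2 fold change was 4.87 in controls (SE 0.260, interval 4.31 to 5.43, edgeR adjusted p 1.16e-07) and 4.11 under ALAN (SE 0.247, interval 3.58 to 4.64, edgeR adjusted p 4.34e-07). Behind the day values stood 41 to 63 counts per control brain and 68 to 144 per ALAN brain, against 1269 to 2497 in the night brains, so the day level was the less precisely measured side.

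**Figure D1:**
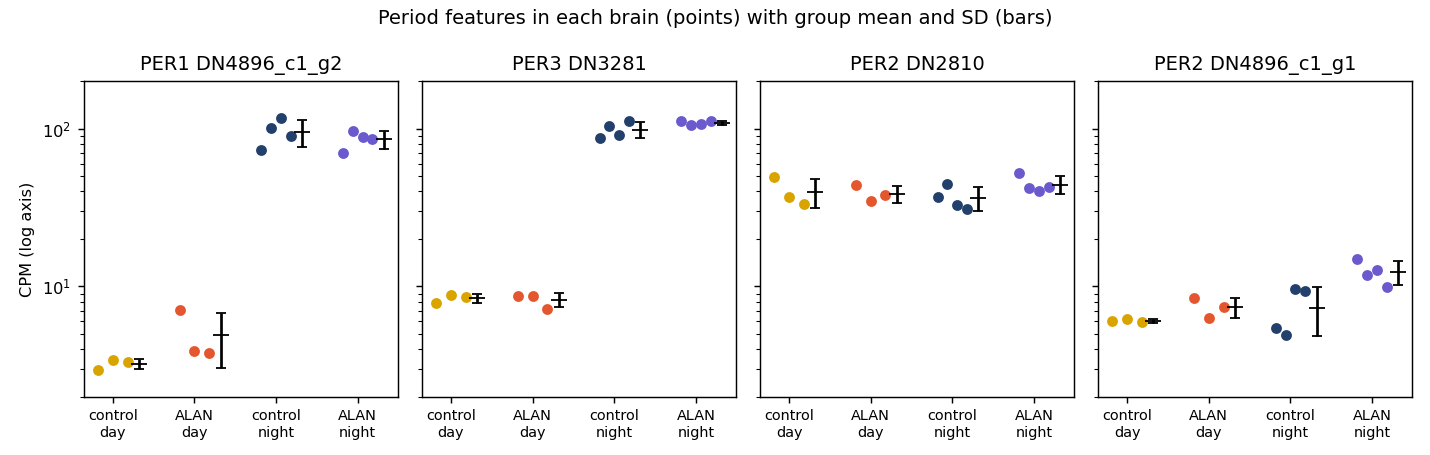
Level of each Period feature in every brain, as CPM on a log axis, by group (3 brains in each day group and 4 in each night group). Points are brains in order of replicate number and the black marks are the group mean with its SD. *PER1* and *PER3* lie at least 9.82 times higher in every night brain than in any day brain. Over all brains the *PER2* features overlap between day and night, although PER2 DN4896 does not within ALAN.

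Thus 2 of the 4 Period features were called higher at night in controls, where 1.07% of all tested features were called higher (2.07% in either direction), and the same 2 under ALAN, where 0.467% were called higher and 0.563% lower (1.03% in all). An unadjusted p under 0.05 was reached by 14.6% of all features in controls. The median log2 fold change of the 4 features was 1.92 in controls and 2.24 under ALAN, beside 0.0146 and 0.0031 over all tested features. Without the 3 photoreceptor-rich libraries the control values were 3.36 for *PER3* (edgeR adjusted p 5.39e-06) and 4.81 for *PER1* (edgeR adjusted p 0.000122). Astroglial markers also moved with time: their summed level was 3431 to 5929 CPM in the day brains and 5623 to 7101 CPM at night, with 2 of 8 features called higher at night over both treatments. Of 9 tested liver markers 2 were called lower at night in controls, with 6 at an unadjusted p under 0.05 and a median log2 fold change of −2.92, and over both treatments 8 of 9 had an unadjusted p under 0.05 and none was called (median −1.57). Their summed level overlapped, at 205 to 952 CPM by day and 293 to 650 CPM at night. Neuronal markers were at 2482 to 2782 CPM by day and 2107 to 2527 CPM at night. The part of these markers in the Period values was not tested, and in whole brains fewer cells of a type and less RNA per cell cannot be told apart.

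The *PER2* features were not called for time of day. PER2 DN2810 measured 49.1, 36.7 and 33.2 CPM in the control day brains and 36.7, 44.8, 32.9 and 30.8 CPM in the control night brains. Under ALAN it measured 43.8, 34.5 and 37.7 CPM by day and 52.4, 41.8, 39.99 and 42.6 CPM at night. All 4 groups overlapped in a band from 30.8 to 52.4 CPM. Its night minus day log2 fold change was −0.13 in controls (interval −0.49 to 0.23, edgeR adjusted p 0.794) and 0.19 under ALAN (interval −0.17 to 0.55, edgeR adjusted p 0.762). In this feature a difference between ZT23 and ZT11 of the size seen in *PER1* or *PER3* lies far outside both intervals. Only these times were sampled, so a change at other hours would not be seen here.

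PER2 DN4896 had fewer counts per brain than PER2 DN2810 and was less even. It measured 6.02, 6.19 and 5.91 CPM in the control day brains, and 5.43, 4.904, 9.66 and 9.41 CPM in the control night brains. Under ALAN it measured 8.39, 6.28 and 7.43 CPM by day and 15.0, 11.9, 12.8 and 9.88 CPM at night. Control night brains fell into a lower and a higher pair around the tight control day values, whereas every ALAN night brain lay above every ALAN day brain. The night minus day log2 fold change was 0.28 in controls (interval −0.26 to 0.83, edgeR adjusted p 0.669) and 0.75 under ALAN (SE 0.253, interval 0.20 to 1.29, edgeR adjusted p 0.241). Such a gap, with night higher, was seen in 5.72% of all features under ALAN. Over both treatments the log2 fold change was 0.52 (SE 0.179, p 0.0122, edgeR adjusted p 0.134), where 17.7% of features had an unadjusted p under 0.05.

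To compare the features with each other, the log2 ratio of each of the 6 pairs was taken inside each brain. Its night minus day difference, averaged over treatments, was tested by a two-sided exact permutation of the time labels within each treatment. *PER1* and *PER3* both differed from both *PER2* features, by between 3.15 and 4.44 on the log2 scale in size, each with the smallest p that 1225 relabellings can give (0.000816, adjusted over the 6 pairs 0.00122). *PER1* and *PER3* also differed from each other: the log2 ratio of *PER1* to *PER3* rose by 0.85 from day to night, averaged over treatments (exact permutation p 0.00245, adjusted 0.00294). That ratio was −1.38 to −1.33 in control day brains, −1.14 to −0.29 in ALAN day brains, −0.32 to 0.36 in control night brains and −0.68 to −0.12 in ALAN night brains. ALAN day replicate 1 was at −0.29, inside the night range, and the other 5 day brains lay below every night brain. Day and night thus overlapped in this ratio under ALAN and not in controls. The *PER2* features did not pass the test against each other, with a difference of −0.44 for PER2 DN2810 minus PER2 DN4896 (exact permutation p and adjusted p 0.0792). Without control night replicate 2 that difference was −0.58 (exact permutation, adjusted p 0.0143).

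**Figure D2:**
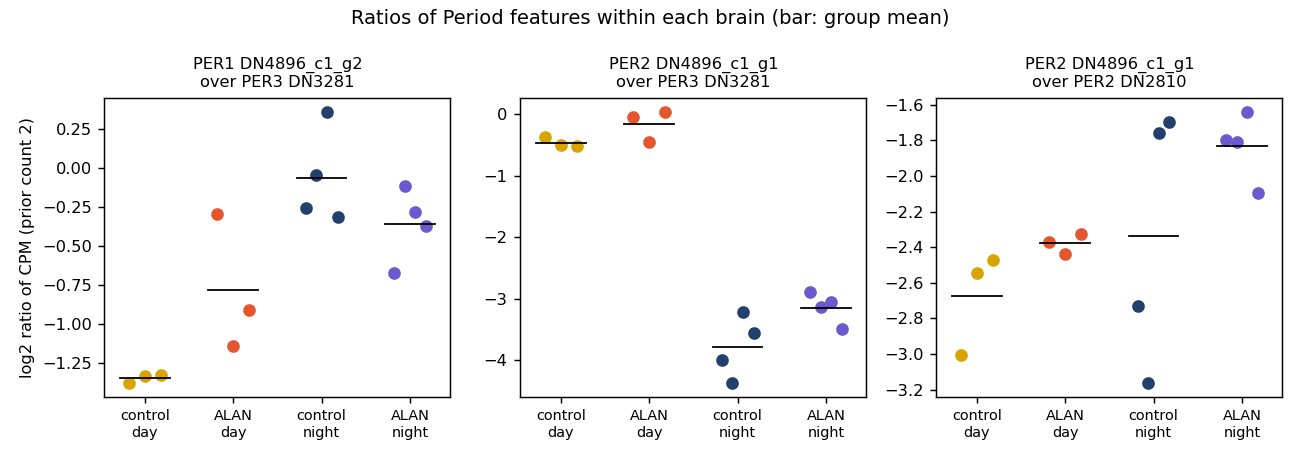
Log2 ratio of Period features inside each brain, from CPM with a prior count of 2, by group, with points for brains and lines for group means. In the left panel the ratio of *PER1* to *PER3* is −1.38 to −1.33 in control day brains and −0.32 to 0.36 in control night brains, with a single ALAN day brain among the night values. The middle panel shows PER2 DN4896 falling against *PER3* at night. The right panel shows the ratio of PER2 DN4896 to PER2 DN2810, in which day and night overlap in controls and not under ALAN.

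The next question was whether lit nights changed the Period level at night. None of the 4 features was called, where 0.0289% of tested features (6 of 20782) were, all of them higher. PER2 DN4896 was nearest: its group mean was 12.4 ± 2.13 CPM in ALAN night brains (SD, n = 4) and 7.35 ± 2.53 CPM in control night brains (SD, n = 4). The groups did not overlap, as in 2.5% of all features (1.32% with ALAN higher), but the lowest ALAN brain, at 9.88 CPM, was close to the highest control, at 9.66 CPM. The log2 fold change was 0.75 (SE 0.231, interval 0.25 to 1.25, p 0.00610, edgeR adjusted p 0.920), with 4.61% of features at an unadjusted p under 0.05. Without the 3 photoreceptor-rich libraries it was 0.71 (p 0.0254, edgeR adjusted p 1). With the counts of both *PER2* features summed it was 0.38 (edgeR p 0.0125), with an adjusted p of at least 0.87, so the sum was not called either.

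The other Period features overlapped between control and ALAN at night. PER2 DN2810 had a mean of 44.2 ± 5.59 CPM under ALAN and 36.3 ± 6.17 CPM in controls (SD, n = 4 each), giving a log2 fold change of 0.28 (interval −0.05 to 0.62, p 0.0889). *PER3* had a mean of 109 ± 3.32 CPM under ALAN and 98.4 ± 11.2 CPM in controls (SD, n = 4 each), giving a log2 fold change of 0.15 (interval −0.07 to 0.36). With the 3 photoreceptor-rich libraries left out the value was 0.29 for *PER3* (p 0.0303, edgeR adjusted p 1) and 0.35 for PER2 DN2810 (p 0.0503, edgeR adjusted p 1). *PER1* had a mean of 85.3 ± 11.3 CPM under ALAN and 94.95 ± 18.1 CPM in controls (SD, n = 4 each), giving a log2 fold change of −0.15 (interval −0.56 to 0.25). In order of mean level, control night was above ALAN night for *PER1* and below it for the other 3 features, and no neighbouring night groups differed by the adjusted test. Photoreceptor markers moved with this comparison, at 101 to 2082 CPM in control night brains and 64.7 to 119 CPM under ALAN, and their part was not tested beyond the values without the 3 libraries. Muscle markers moved with it too and did not overlap, at 113 to 258 CPM in control night brains and 49.98 to 86.6 CPM under ALAN, with 6 of 13 features at an unadjusted p under 0.05 and none called, and their part was not tested.

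By day, none of the 4 features was called for ALAN either, where 0.00481% of tested features (1 of 20782) were. *PER1* had a mean of 4.93 ± 1.89 CPM in ALAN day brains and 3.23 ± 0.256 CPM in control day brains (SD, n = 3 each). Every ALAN day brain lay above every control day brain, as in 5.33% of all features (10.7% in either direction). The log2 fold change was 0.61 (SE 0.249, interval 0.07 to 1.14, p 0.0290, edgeR adjusted p 0.635), with 6.92% of features at an unadjusted p under 0.05. A single brain carried most of it: without ALAN day replicate 1, at 7.10 CPM, the value was 0.25 (p 0.278), and the other 2 ALAN brains, at 3.79 and 3.88 CPM, were just above the highest control, at 3.42 CPM. Without the 3 photoreceptor-rich libraries it was 0.54 (p 0.112).

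PER2 DN4896 did not overlap between the day groups either, with means of 7.36 ± 1.06 CPM under ALAN and 6.04 ± 0.143 CPM in controls (SD, n = 3 each), and a log2 fold change of 0.29 (interval −0.29 to 0.86, edgeR adjusted p 0.909). Such a gap, with ALAN higher, was seen in 5.33% of all features. The lowest ALAN brain, at 6.28 CPM, was just above the highest control, at 6.19 CPM. PER2 DN2810 (log2 fold change −0.04, interval −0.42 to 0.35) and *PER3* (−0.03, interval −0.30 to 0.23) overlapped between the day groups. Muscle, liver and pituitary markers moved with this comparison. Muscle markers summed to 57.1 to 746 CPM in control day brains and 72.5 to 112 CPM under ALAN, and liver markers to 423 to 952 CPM and 205 to 510 CPM. Pituitary markers summed to 2.87 to 45.3 CPM in control day brains and 18.02 to 1228 CPM under ALAN. Of 5 pituitary features 1 had an unadjusted edgeR p under 0.05 and none was called (median log2 fold change 1.45). ALAN day replicates 1 and 2 were at 768 and 1228 CPM of pituitary markers, with *PER1* at 7.10 and 3.88 CPM. The part of these 3 marker lists in the Period values was not tested.

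Whether the day-night difference itself changed with lit nights was tested by the interaction of ALAN and time. No Period feature was called, and none of the 20782 features was (0%), with 6.15% at an unadjusted p under 0.05 and 56 features called by DESeq2. *PER1* had the largest value among the 4, a day-night log2 fold change lower by 0.76 under ALAN (−0.76, SE 0.312, interval −1.43 to −0.09, p 0.0290, edgeR adjusted p 0.747). Without ALAN day replicate 1 it was −0.40 (p 0.155). The interaction was 0.46 for PER2 DN4896 (interval −0.30 to 1.23), 0.32 for PER2 DN2810 (interval −0.19 to 0.83) and 0.18 for *PER3* (interval −0.16 to 0.52). The interaction of *PER3* was 0.38 without the 3 photoreceptor-rich libraries (p 0.0544, edgeR adjusted p 1), and with single libraries left out it ran from 0.09 to 0.25.

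**Figure D3:**
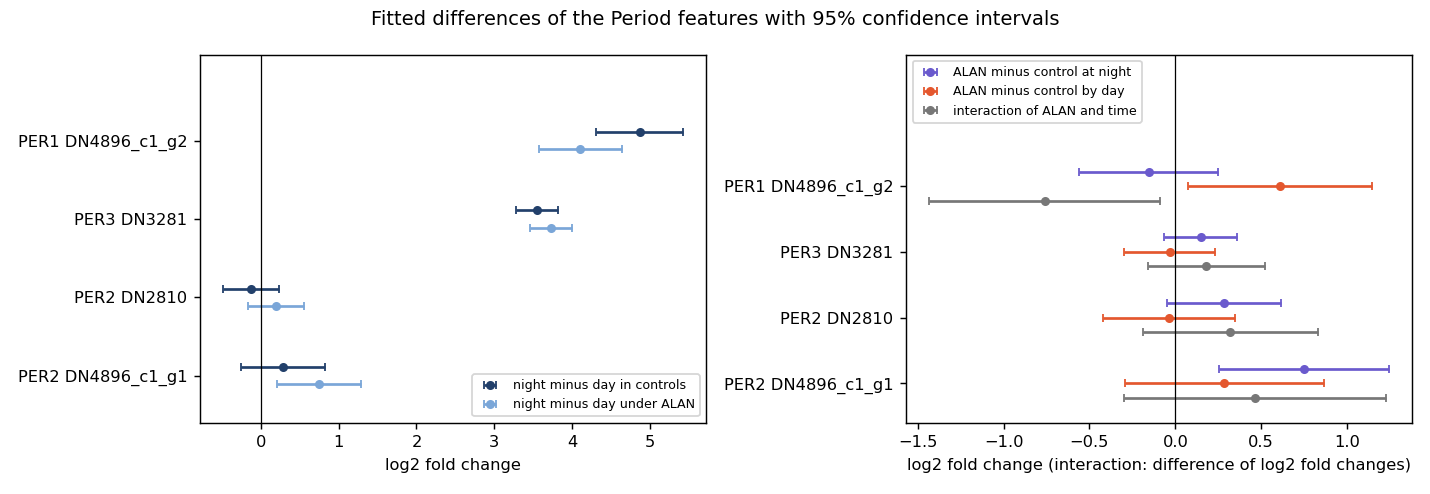
Fitted log2 fold changes of the 4 Period features with 95% confidence intervals from the edgeR fit on 14 brains. On the left, night minus day is far above 0 for *PER1* (4.87 and 4.11) and *PER3* (3.55 and 3.73) and near 0 for PER2 DN2810 (−0.13 and 0.19). For PER2 DN4896 it is 0.28 in controls and 0.75 under ALAN, and neither was called. On the right, the effects of ALAN are within 0.76 of 0, and none passed the adjusted threshold.

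Averaged over day and night, PER2 DN4896 had a log2 fold change of 0.52 under ALAN (SE 0.177, interval 0.14 to 0.90, p 0.0116, edgeR adjusted p 0.661), where 0.00481% of features were called and 5.71% had an unadjusted p under 0.05. The other 3 features were between 0.06 and 0.23. Markers moved with this comparison too: 13 of 25 photoreceptor, 7 of 9 liver, 6 of 13 muscle and 1 of 5 pituitary features had an unadjusted edgeR p under 0.05. None of them was called. Their median log2 fold changes were −1.56, −2.54, −1.39 and 2.07, and their part was not tested. Without the 3 photoreceptor-rich libraries the value of PER2 DN4896 was 0.50. In the ratios inside each brain, PER2 DN4896 against *PER3* was higher by 0.47 under ALAN (two-sided exact permutation of treatment within time, 1400 relabellings, p 0.0114, adjusted over 6 pairs 0.0686). The smallest p this design can give is 0.00143. Without ALAN day replicate 2 the difference was 0.55 and without control night replicate 3 it was 0.57, with adjusted p of 0.0257 and 0.0343 by the exact permutation test. The other 5 pairs had adjusted p between 0.236 and 0.807, so with all 14 brains no pair of Period features was shown to differ in its response to ALAN.

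*PER3* was the steadiest of the 4 features between brains of a group. Its SD of log2 CPM within groups was 0.122, and 95.6% of all tested features had a larger SD. The SD was 0.221 for PER2 DN2810, 0.298 for *PER1* and 0.323 for PER2 DN4896, beside a median of 0.383 over all features. Time of day accounted for 99.6% of the variance of log2 CPM in *PER3*, 98.1% in *PER1*, 24.2% in PER2 DN4896 and 0.607% in PER2 DN2810, beside a median of 7.41%. Within day (n = 6) and within night (n = 8), 12 relations between pairs of features were computed on log2 CPM. Control and ALAN brains were pooled for this and group means were not subtracted, so differences between the treatments are part of r. The strongest joined the features of the shared assembly component, *PER1* and PER2 DN4896, by day (Pearson's r 0.883, exact permutation p 0.0194, adjusted 0.233, and Spearman's rho 0.886, exact permutation p 0.0333). It was 0.628 without the 2 brains farthest from the median, and at night r was −0.14.

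The Period values were set beside 39 tested features (of 40 in the table) of other clock genes, grouped by role. In controls 10 of them were called higher and 6 lower at night, where 1.07% of all features were called higher and 1% lower. Under ALAN the numbers were again 10 and 6, though not all the same features, where 0.467% and 0.563% of all features were called. For ALAN at either time and for the interaction edgeR called none of the 39. An unadjusted edgeR p under 0.05 was reached by 2 of the 39 for ALAN at night, 6 by day and 7 for the interaction. Over all features these shares were 4.61%, 6.92% and 6.15%. Over both treatments 13 were called higher and 10 lower, where 2.23% of all features were called higher and 2.11% lower (4.34% in all). The median log2 fold change of the 39 features was 0.13, beside 0.01 over all tested features. Without the 3 photoreceptor-rich libraries 17 were called.

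The activators, which Period proteins hold back, went the other way from *PER1* and *PER3*. Of 9 features of *CLOCK*, *NPAS2*, *ARNTL* and *ARNTL2*, 6 were lower at night over both treatments and none higher. In controls *ARNTL2* (DN6179) fell from a day level of 37.9 ± 3.35 CPM (SD, n = 3) to a night level of 8.82 ± 3.19 CPM (SD, n = 4), and under ALAN from 36.0 ± 4.22 to 7.49 ± 1.32 CPM, with a log2 fold change of −2.19 over both (edgeR adjusted p 3.03e-06). Of 4 cryptochrome features, the partners of Period proteins, 1 was higher and 1 lower. *CRY1* (DN1907_c0_g2) rose from 8.84 ± 0.257 to 34.7 ± 9.03 CPM in controls and from 10.1 ± 2.55 to 52.4 ± 7.10 CPM under ALAN, with a log2 fold change of 2.17 over both (edgeR adjusted p 1.00e-06). This feature shares its assembly component with a *Cry2* feature that was lower at night (log2 fold change −0.70, edgeR adjusted p 0.000122).

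The further repressors went with *PER1* and *PER3*. All 4 features of *BHLHE40*, *BHLHE41* and *CIART*, which hold back the same activators, were called higher at night over both treatments. The *CIART* feature DN1024_c1_g1 passed narrowly (edgeR adjusted p 0.0490), with 0 to 30 counts per day brain. It was called neither in controls nor under ALAN alone (edgeR adjusted p 0.170 and 0.389). *BHLHE41* rose from 19.2 ± 1.91 to 212 ± 26.8 CPM in controls and from 19.2 ± 1.24 to 188 ± 35.5 CPM under ALAN (log2 fold change 3.37 over both, edgeR adjusted p 7.43e-10). Of 6 nuclear receptors, which act on the *ARNTL* genes, 3 were higher and none lower. *NR1D2* (DN9051), a receptor that represses *ARNTL*, rose from 32.5 ± 6.09 to 129 ± 6.72 CPM in controls and from 48.3 ± 3.65 to 141.0 ± 20.2 CPM under ALAN (log2 fold change 1.77 over both, edgeR adjusted p 1.46e-07).

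Of 6 features of the clock's bZIP output factors, 4 were higher, all of them *TEF* or *HLF*, and 1 lower. The lower 1 was *NFIL3* (DN7910), a repressor that competes with them for sites, which fell from 11.7 ± 1.74 to 2.00 ± 0.404 CPM in controls and from 10.6 ± 1.22 to 2.42 ± 0.557 CPM under ALAN (log2 fold change −2.34 over both, edgeR adjusted p 1.07e-06). Of 10 features of kinases, F-box proteins and partners that act on clock proteins, 1 was higher and 2 lower. *CSNK1D* (DN1746_c1_g1), which encodes casein kinase 1 delta, rose from 50.6 ± 3.52 to 90.0 ± 4.53 CPM in controls and from 46.0 ± 2.83 to 94.5 ± 7.86 CPM under ALAN (log2 fold change 0.94 over both, edgeR adjusted p 2.28e-06). The lower 2 were features of *CSNK1E* (log2 fold changes −0.62 and −0.44, edgeR adjusted p 0.000227 and 0.00674).

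**Figure D4:**
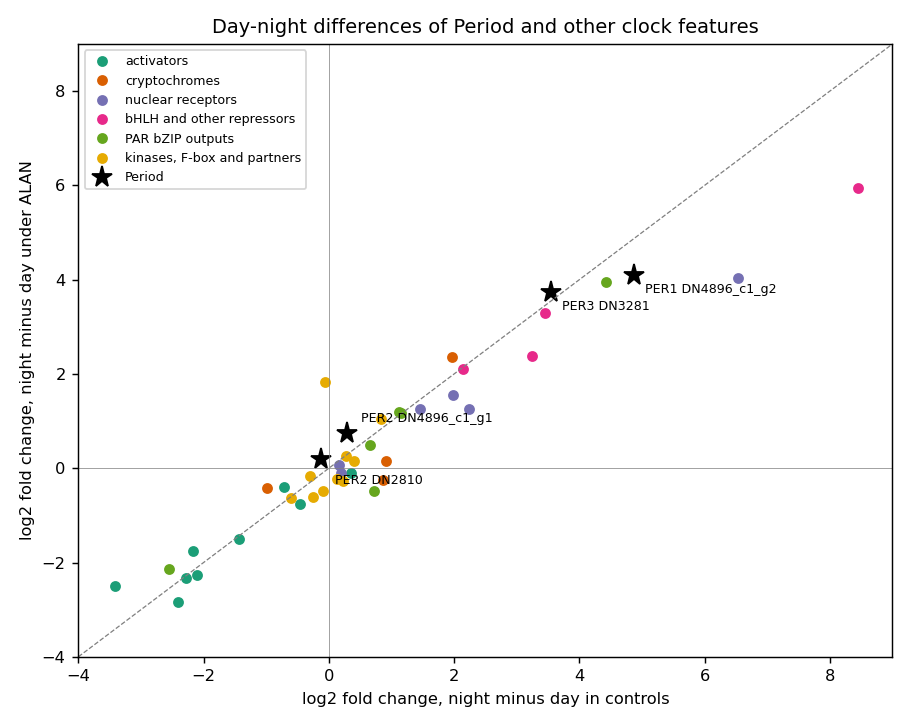
Night minus day log2 fold changes in controls (x axis) and under ALAN (y axis) for the 4 Period features (stars) and 39 other clock features (points, coloured by role), with the line of equal values. *PER1* and *PER3* lie at the upper right with the repressors, and the activators lie mostly at the lower left. PER2 DN2810 lies near the origin (−0.13 and 0.19) and PER2 DN4896 above it (0.28 and 0.75). The point farthest to the right is *ciart* (DN72205), with 1 to 23 counts per day brain, so its fitted fold change rests on few counts.

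The features whose log2 CPM was most like each Period feature over the 14 libraries were taken from 15944 other named features with a mean of at least 1 CPM. The *PER1* and *PER3* values fall into a day and a night cluster. Any feature with the same gap has a high r to them, so r is given as a description. For every Period feature, the highest of 15944 values over 14 libraries are also raised by the choice itself. This holds as well for the values after subtracting group means below. For *PER1* the closest features were *SMU1* (DN1335_c1_g1, r 0.992), *BHLHE41* (0.991), *ciart* (0.985), *BHLHE40* (0.984) and *DUSP6* (0.975). For *PER3* they were *BHLHE41* (r 0.990), *SMU1* (0.989), *BHLHE40* (0.983), *CTPS1* (0.982) and *KCTD17* (0.975). The closest feature to *PER1*, named for the splicing factor *SMU1*, was at 9.86 ± 1.27 CPM by day (SD, n = 3) and 475 ± 90.7 CPM at night (SD, n = 4) in controls.

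The *PER2* features, which do not fall into such clusters, had other neighbours and lower r. For PER2 DN2810 they were *PITPNM2* (r 0.866), *DBNDD1* (0.837), *HSPBP1* (0.815), *ITPKB* (0.808) and *KIAA1244* (0.803). For PER2 DN4896 they were *ATP1B2* (r 0.902), which encodes a beta subunit of the sodium-potassium pump, *SGK3* (0.870), *YME1L1* (0.861), *PANX2* (0.833) and *DEGS1* (0.827). No clock gene of the list was among the 5 closest to either. The 39 tested clock features are few beside 15944 candidates, so this absence says little.

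After the group means had been subtracted, which leaves the differences between brains of a group, the closest features changed for *PER1* and *PER3*. For *PER1* they were *SCN2B* (r 0.982), *GRM7* (0.940), *CELSR3* (0.929), *NBEAL1* (0.928) and *TESK1* (0.910), and for *PER3* *ISOC2* (0.893), *CNKSR3* (0.873), *FAM19A2* (0.863), *USP44* (0.863) and *ABCB9* (0.852). For PER2 DN4896 *ATP1B2* was again the closest (r 0.926), before *SRF* (0.901), *NAA30* (0.885), *clip1* (0.871) and *PAQR6* (0.870). For PER2 DN2810 they were *GPR149* (r 0.957), *PITPNM2* (0.892), *DCUN1D2* (0.865), *SIPA1L1* (0.857) and *ANGPT2* (0.848). None of these 20 places was held by a gene of the clock list, which for the same reason says little.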

How the data were processed

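Expected counts, that is estimated reads per assembled gene that need not be whole, were deposited by the authors for 21805 features and 14 libraries, and 95.98% of the values were not whole. Trimmomatic 0.39, RSEM and Bowtie2 are named in the submitters' processing notes. The kit did not keep strand and added molecular identifiers of 9 bases, per the labels, and no source used here says whether these were collapsed. Names and the deposited bit score of each match come from eggNOG-mapper 2.1.7, per the file headers. A further 3 libraries without a column in the count table were not analysed here. No sequence or genome was used.

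Counts were rounded. The filter filterByExpr by group (minimum count 10, total 15) kept 20782 features and removed 1023, and TMM factors ran from 0.870 to 1.08. A quasi-likelihood model of the 14 libraries with group means was fitted in edgeR 4.0.16 (R 4.3.3; 10 residual degrees of freedom, prior 3.55), and 7 contrasts were adjusted by Benjamini-Hochberg over all tested features with a threshold of 0.05. The SE is the absolute log2 fold change over the square root of F. Log2 CPM used a prior count of 2. Pairs of Period features were compared with exact permutation tests (scipy 1.17.1). The models were tested on simulated data. Alternatives were DESeq2 1.42.0, other factors, no filter, fewer groups, summed features, a replicate block and leaving out libraries.

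Named features were every Period feature, in each clock role the feature with the smallest p over both treatments, and the 5 features most like each Period feature. The members, the clock list, the markers and the tests were chosen with earlier results of these data known. Nothing says that fish of a group were kept apart, so p-values measure the spread between these samples.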

Additional observations from a re-analysis of the deposited data

How the results depend on the processing

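The calls of *PER1* and *PER3* for time of day held under every alternative run, with night minus day log2 fold changes between 4.76 and 4.98 (*PER1*) and 3.36 and 3.602 (*PER3*) in controls when single libraries were left out or the 3 photoreceptor-rich libraries were, and no Period feature was called for ALAN or the interaction under any. The replicate numbers did not pair the libraries (12 same-numbered pairs, correlation of deviations −0.196 to 0.148, with 1 over 0.1). With the replicate block 240 features were called in place of 430 for night against day in controls, the Period calls were 2, 2, 0, 0 and 0 as without it, and the ALAN difference of *PER3* by day was 0.037 in place of −0.032. With counts summed by gene name, the *PER2* sum gave −0.068 for night minus day in controls and 0.013 for ALAN by day. Summed by assembly component, where *PER1* outweighs PER2 DN4896 at night, that sum gave 3.46 in controls, 2.99 under ALAN and 3.22 over both for night minus day, −0.062 for ALAN at night and −0.47 for the interaction. DESeq2 called 1, 4, 1 and 1 clock features, where edgeR called 0, for ALAN at night, ALAN by day, the interaction and ALAN over both times. For night against day it called 1108 features in controls (edgeR 430), 657 under ALAN (214) and 1793 (902) over both, 41 (6) and 138 (1) for ALAN at night and by day, 56 (0) for the interaction and 154 (1) for ALAN over both. With only the 2 groups compared, edgeR called 191 and 126 features for night against day and 2 for ALAN by day. Without the 3 photoreceptor-rich libraries it called 97 and 142 features for night against day, 397 over both and 0 for each ALAN comparison, and PER2 DN2810 was at 0.14 for ALAN by day. Leaving out single libraries, night minus day of PER2 DN2810 ran from −0.25 to 0.053 in controls and from −0.031 to 0.12 over both treatments, ALAN by day from −0.15 to 0.15 for PER2 DN2810 and from −0.081 to 0.053 for *PER3*, the ALAN change of *PER1* against PER2 DN2810 from −0.052 to 0.15 and of PER2 DN4896 against *PER3* from 0.37 to 0.57, and the day-night change of PER2 DN2810 against PER2 DN4896 from −0.58 to −0.33. The features called ran from 216 to 552 for night against day in controls, from 131 to 214 under ALAN, from 1 to 8 for ALAN at night, from 0 to 6 by day and from 0 to 11 over both times. The causes of these shifts were not tested. The low day counts of *PER1*, from 41 per brain, limit the precision of its fold changes, and intervals cover the spread between these brains only.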
